A study of Mus musculus with 2 samples.

Results

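The genes of cytokine signalling through Janus kinases (JAKs) and signal transducers and activators of transcription (STATs) were followed in progenitors of group 2 innate lymphoid cells (ILC2p). The set holds 33 genes in 8 families, each found by its symbol, out of 27179 rows in each file. RNA sequencing was run on 2 libraries, called pool 1 and pool 2, which form 1 group. Each came from 8 pooled C57BL/6 mice, 8 weeks of age, whose bone marrow cells were sorted by flow cytometry, and 100 ng of total RNA entered library preparation. No treatment or altered gene is named in the labels, and neither the antibodies of the sort nor the sex of the mice is given in the sources used here. With 1 group and no control, levels are described within these cells, and differences between the pools have no replicate check.

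In this pathway, a cytokine joins receptor chains whose bound JAKs then phosphorylate each other, the receptor and the STATs. Phosphorylated STATs pair, enter the nucleus and switch on genes, among them those of their own inhibitors, the SOCS and CIS proteins, and of the Pim kinases, which are active as soon as they are made. Innate lymphoid cells depend on the shared cytokine receptor gamma chain, the IL-7 receptor and JAK signalling, and their progenitors need IL-7.

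The files give RPKM, reads scaled by gene length and library size, so levels of different genes can be compared per length, given the lengths used. The shortest lengths that gave whole reads for Ptpn2, Pim2 and Pias2 were 277%, 183% and 155% of their exon bases in GENCODE M21. Whole reads behind the values gave a total of 20216146 in pool 1 and 19834586 in pool 2. A 1 kb gene with 3 reads would then show 0.148 RPKM in pool 1 and 0.151 in pool 2. Of 2 column headings, 0 matched their own sample, and each carries the code of the other one. Should the headings be the correct ones, every difference below between the pools changes its direction. All 8 ILC2 markers looked at were detected, with means from 53.7 RPKM for Rora to 534 RPKM for Thy1.

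Cish, Pim1, Pim3 and Socs3 were the only members at least 1.5-fold apart between the pools, and their promoters are shown so that the sequence next to each start can be read beside those differences. Promoters of 26 of 33 members were matched by gene ID in RefSeq (GRCm38.p6, the coordinates of mm10), each with 250 bases before and 50 after an annotated start. The 4 sequences run 5′ to 3′ on the gene's strand, and capitals mark TTCNNNGAA, the palindrome that STAT dimers bind. They lie at chr9:107296409-107296708 (plus strand), chr17:29490535-29490834 (plus), chr15:88861944-88862243 (plus) and chr11:117969317-117969616 (minus). Pim1 has a further annotated start, and the upstream one is shown. In RefSeq the genes themselves span chromosome 9, 107296659 to 107302784 (Cish, Entrez ID 12700), chromosome 17, 29490785 to 29496111 (Pim1, 18712), chromosome 15, 88862194 to 88865726 (Pim3, 223775), and chromosome 11, 117966079 to 117970336 (Socs3, 12702).
Cish: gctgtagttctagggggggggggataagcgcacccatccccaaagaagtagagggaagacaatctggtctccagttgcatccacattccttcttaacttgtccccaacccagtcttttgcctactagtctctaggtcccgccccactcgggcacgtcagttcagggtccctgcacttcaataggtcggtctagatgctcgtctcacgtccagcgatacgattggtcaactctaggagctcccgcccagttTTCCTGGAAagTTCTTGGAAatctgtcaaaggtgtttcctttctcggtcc
Pim1: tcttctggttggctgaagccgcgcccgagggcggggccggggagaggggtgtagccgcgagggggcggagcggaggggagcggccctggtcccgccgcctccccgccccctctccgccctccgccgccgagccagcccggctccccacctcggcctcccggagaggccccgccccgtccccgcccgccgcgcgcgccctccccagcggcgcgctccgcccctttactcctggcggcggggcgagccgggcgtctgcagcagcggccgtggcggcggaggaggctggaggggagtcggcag
Pim3: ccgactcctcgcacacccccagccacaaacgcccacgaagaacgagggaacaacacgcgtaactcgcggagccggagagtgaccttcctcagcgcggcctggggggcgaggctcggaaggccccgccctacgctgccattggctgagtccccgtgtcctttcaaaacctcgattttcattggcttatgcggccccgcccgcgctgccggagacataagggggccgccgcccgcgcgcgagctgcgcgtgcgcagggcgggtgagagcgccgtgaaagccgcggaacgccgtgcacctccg
Socs3: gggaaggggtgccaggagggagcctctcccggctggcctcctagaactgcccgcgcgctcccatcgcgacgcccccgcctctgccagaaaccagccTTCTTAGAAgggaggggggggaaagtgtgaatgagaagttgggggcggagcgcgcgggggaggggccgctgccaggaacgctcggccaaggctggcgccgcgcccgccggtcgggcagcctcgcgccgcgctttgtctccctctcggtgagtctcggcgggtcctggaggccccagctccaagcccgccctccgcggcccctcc

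The Cish promoter held 2 matches, TTCCTGGAA at the annotated start itself and TTCTTGGAA 11 bases downstream of it. In Socs3, TTCTTAGAA lay 154 bases before the annotated start used. That start and its whole window lie inside the RefSeq span of Socs3, and the sequence before the outer end of the gene was not searched. No other member promoter had the motif, so 2 of 32 sequences held it. That is near the 8.3% of all 32851 promoters and the 6.86% of the 10683 promoters of detected genes. TGACGTCA, the cyclic AMP response element, was in the promoters of Jak1 and Ptpn11. It was in 1.79% of all promoters and 3.06% of those of detected genes. TGANTCA, which AP-1 binds, was in none of the 32, in 7.81% of all and in 4.64% of those of detected genes. Each motif reads the same on both strands, and a match does not show binding.

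Members were expressed nearly throughout. At 1 RPKM or more in both pools, 32 of 33 were detected, against 40.5% of all rows. Their median level was 4.51 (mean log2(RPKM + 0.1) over the pools), beside 3.86 for all 11013 detected genes, and 20 of the 32 lay above the median gene. Pim1, Jak1 and Cish reached a mean of 100 RPKM, as did 7.14% of detected genes. In bulk RNA, fewer cells of a type and less RNA per cell cannot be told apart.

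**Figure D1:**
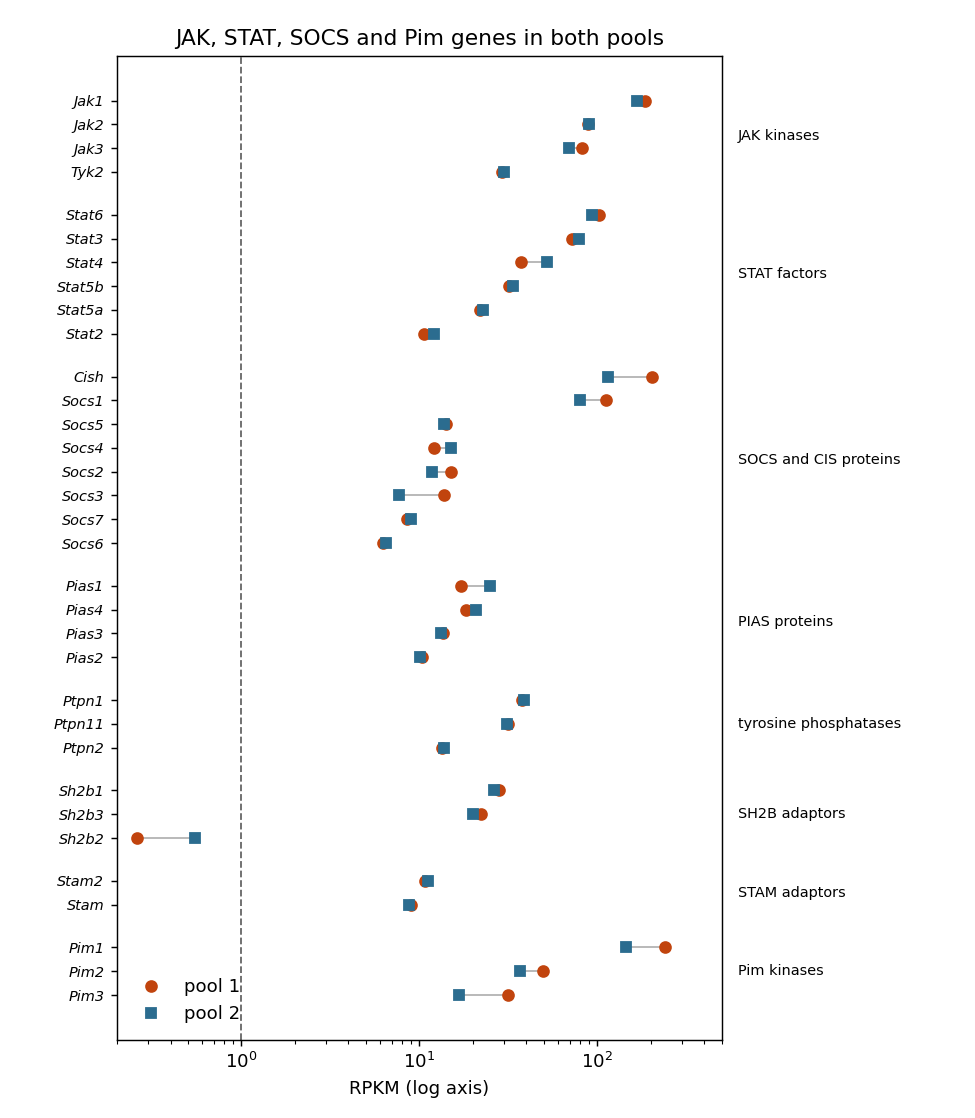
RPKM of each of the 33 members on a log axis in pool 1 (circles) and pool 2 (squares), by family, with a dashed line at the detection threshold of 1 RPKM. Pim1, Jak1 and Cish are furthest right, and only Sh2b2 lies left of the line.

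The most abundant of the JAKs was Jak1, which pairs with receptors of the gamma chain, gp130 and interferon families. Its level was 186 RPKM in pool 1, against 167 in pool 2, a mean of 177 ± 13.5 RPKM (SD, n = 2). Tyk2, the partner of JAKs on interferon and IL-12 family receptors, was lowest at 29.3 and 29.9 RPKM. Jak1 was therefore 6.35 and 5.59 times Tyk2 per length. Jak2, used by the beta common chain and hormone-type receptors among others, stood at 88.6 and 90.0 RPKM. Jak3, which binds only the gamma chain, was at 82.6 and 69.5 RPKM, and its range did not overlap that of Jak2. Jak1 held 48.1% and 46.9% of the summed JAK level of 371 ± 21.4 RPKM.

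Among the STATs, Stat6, the factor activated by IL-4 and IL-13, led with 103 RPKM in pool 1, against 93.6 in pool 2. Stat3, which acts downstream of gp130 and IL-23 receptors, followed at 72.1 and 78.6 RPKM, below Stat6 in both pools. Stat4, the IL-12 factor, was at 37.4 and 52.5 RPKM, 1.40-fold higher in pool 2 (95% counting interval 1.33 to 1.48). In GENCODE M21, 32.8% of its exon bases overlap other transcripts, chiefly Gm28177 on the same strand. No row carries the symbol Gm28177, so no reads were assigned to it under that name. Reads from the shared bases cannot be told apart. Stat2, which joins the interferon-induced complex ISGF3, was lowest at 10.6 and 12.1 RPKM.

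Stat5a and Stat5b, which carry IL-7, IL-2 and TSLP signals, were expressed at a nearly fixed ratio. Stat5b was at 31.9 and 33.6 RPKM, and Stat5a at 21.9 and 22.9 RPKM. The ratio of Stat5b to Stat5a was 1.45 in pool 1 and 1.47 in pool 2, so both pools had more Stat5b per length. They are close copies that lie side by side on chromosome 11 (100859351 to 100885169 for Stat5a, 100780731 to 100859004 for Stat5b, mm10), next to Stat3. Of all 50-base stretches of the Stat5a transcript, 15.8% also occur in another gene, chiefly Stat5b, and 11.8% of those of Stat5b occur elsewhere, so each level is uncertain by what the authors' counting did with shared reads. Together with Stat5a, Stat5b made up less of the STAT sum than Stat3 did in both pools.

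**Figure D2:**
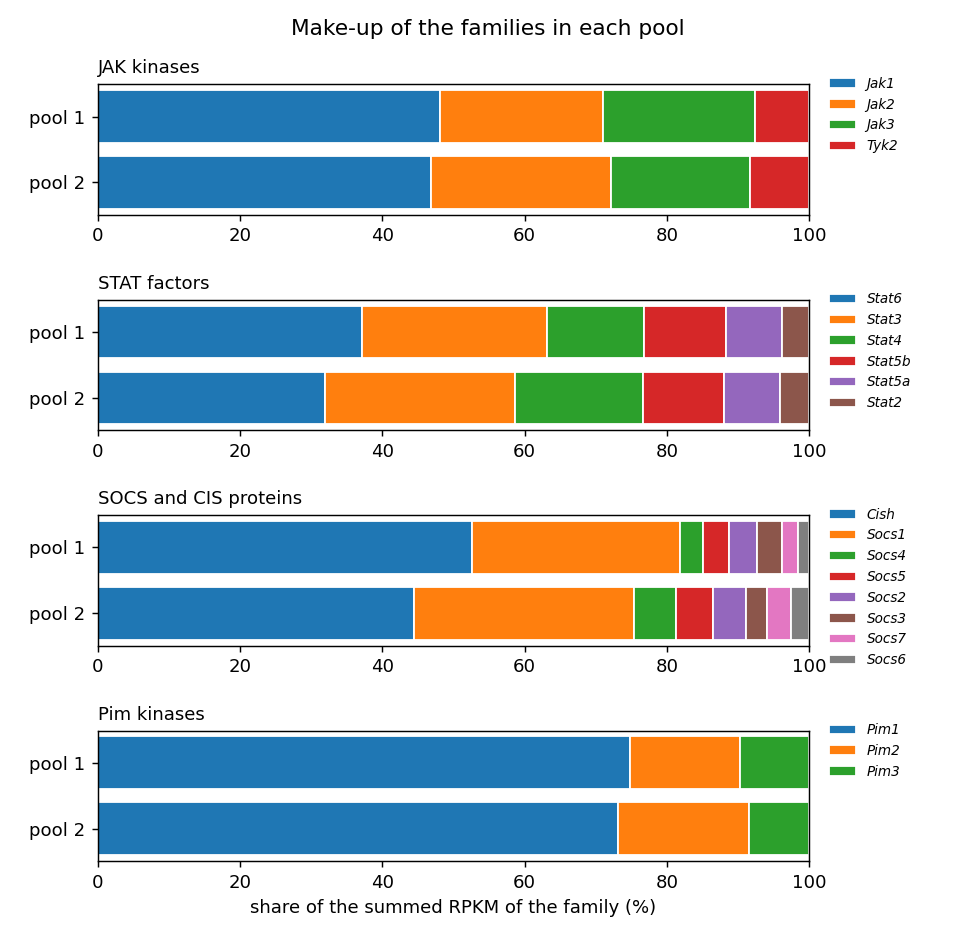
Share of each member in the summed RPKM of its family (%, stacked bars), pool 1 above pool 2, for JAK, STAT, SOCS and CIS, and Pim genes. The make-up was alike in both pools, and the SOCS and CIS bar shows the largest shift, with Cish at 52.6% in pool 1 and 44.5% in pool 2.

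Feedback inhibitors were dominated by Cish and Socs1. Cish encodes CIS, an SH2 protein that blocks STAT5 docking on receptors, and reached 203 RPKM in pool 1, against 115 in pool 2, a mean of 159 ± 61.6 RPKM. Socs1, which inhibits JAKs directly and restrains interferon and gamma chain signals, was at 113 and 79.9 RPKM. Together they made up most of the SOCS and CIS sum, which was 385 RPKM in pool 1 and 259 RPKM in pool 2. Socs2, best known as the inhibitor of growth hormone signalling, was at 15.0 and 11.8 RPKM. Of its 50-base stretches, 18.4% also occur in another gene, chiefly Gm9847. Socs3, which inhibits gp130 receptors and JAKs, was at 13.7 and 7.70 RPKM. Cish exceeded Socs3 by 14.8 and 15.0 times, a ratio that hardly moved although both genes differed between the pools.

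The remaining SOCS genes were low and even. Socs5 was at 14.2 and 13.7 RPKM, Socs4 at 12.1 and 15.2, and Socs7 at 8.55 and 8.94. Socs6 was the lowest of the family at 6.27 and 6.53 RPKM. For Socs4 the recovered reads are a low bound of 88 and 108, so its counting interval is wide (0.596 to 1.07 for pool 1 over pool 2).

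Other restraints on the pathway varied less. Ptpn1 and Ptpn2 encode phosphatases that remove phosphate from JAKs and STATs. Ptpn1 was at 38.0 and 38.8 RPKM, and Ptpn2 was at 13.4 and 13.7, lowest of the phosphatases. The length that gave whole reads for Ptpn2, 8404 bases, was 277% of its exon bases, against 100% for Ptpn1 and Ptpn11. Its place as the lowest therefore depends on the length used. Ptpn11, whose product SHP2 links receptors to the Ras pathway, was at 31.5 and 31.1 RPKM. All 3 were within 1.1-fold between the pools, as were 41.9% of all detected genes.

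PIAS proteins, SUMO ligases that bind STATs, summed to 59.5 and 69.3 RPKM. Pias1 was highest on average at 21.1 ± 5.57 RPKM. Pool 1 had 17.2 RPKM and pool 2 had 25.1, 1.46-fold more (95% counting interval 1.36 to 1.57). Pias4 was at 18.4 and 21.0. Pias3 stood at 13.6 and 13.2 RPKM and Pias2, the lowest, at 10.4 and 10.1. The length that gave whole reads was 155% of the exon bases for Pias2 and 101% for Pias3, so their order depends on the lengths used. The ranges of Pias1 and Pias4 overlapped, so these pools do not settle which is higher.

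Of the SH2B adaptors, Sh2b1, which enhances JAK2 activity, was at 28.0 and 26.4 RPKM. Sh2b3, also called LNK, a negative regulator of cytokine signals in blood progenitors, averaged 21.1 ± 1.54 RPKM. Sh2b2 was the only member below detection, with 0.261 RPKM in pool 1 against 0.549 in pool 2, from at least 15 and 31 reads. The endosomal adaptors Stam2 and Stam, which sort ubiquitinated receptors, were at 10.8 and 11.2 RPKM and at 8.97 and 8.80 RPKM.

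Pim1 had the highest mean of the members, with 241 RPKM in pool 1 against 145 in pool 2 (193 ± 68.3, SD, n = 2), and 2.96% of detected genes had a higher mean. In pool 2 it was below Jak1. Pim2 was at 49.5 and 36.7 RPKM. Pim3 was the lowest of the 3 at 31.6 and 16.7 RPKM. Pim1 held 74.9% and 73.1% of the Pim sum, so the make-up of the family was alike although the sum was 322 RPKM in pool 1, against 198 in pool 2.

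In the order of all 33 levels, the ranges over the pools overlapped in 20 of 32 neighbouring pairs. Pim1, Jak1 and Cish overlapped one another and have no settled order, but all were above Stat6 in both pools. Socs1 overlapped both Stat6 and Jak2. Gaps stood between Jak2 and Jak3, between Stat3 and Stat4, and between Ptpn1, Stat5b, Ptpn11, Tyk2 and Sh2b1 in that order.

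The comparison of the pools asked which members differed between separate groups of mice. Of the 32 detected members, 4 were at least 1.5-fold higher in pool 1 (12.5%), against 2.6% of detected genes. None was 1.5-fold higher in pool 2, against 5.86% of detected genes, and in either direction together the background was 8.45%. Folds are of RPKM + 0.1, and 1 library a side allows no test. The median log2 ratio of pool 1 over pool 2 was 0.02 for the members and -0.04 for all detected genes, so the set as a whole was not shifted.

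Pim3 differed most, at 1.89-fold (95% counting interval 1.74 to 2.06), followed by Socs3 at 1.77-fold (1.58 to 2.01), Cish at 1.75-fold (1.70 to 1.82) and Pim1 at 1.67-fold (1.61 to 1.73). The intervals are exact binomial intervals on recovered reads, of which Pim3 had at least 1543 in pool 1 and 800 in pool 2, Socs3 757 and 417, Cish 8850 and 4946, and Pim1 8582 and 5051. They cover counting error only, since reads without molecular identifiers are not independent molecules and mice add further spread. No member reached 2-fold, against 0.962% of detected genes higher in pool 1 by that much and 1.6% in pool 2. Among the exons of Cish and Pim1, 16.0% and 15.0% of bases overlap other transcripts, chiefly Gm17041 and Gm26885 on the opposite strand, and with no strand setting given their reads cannot be told apart.

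**Figure D3:**
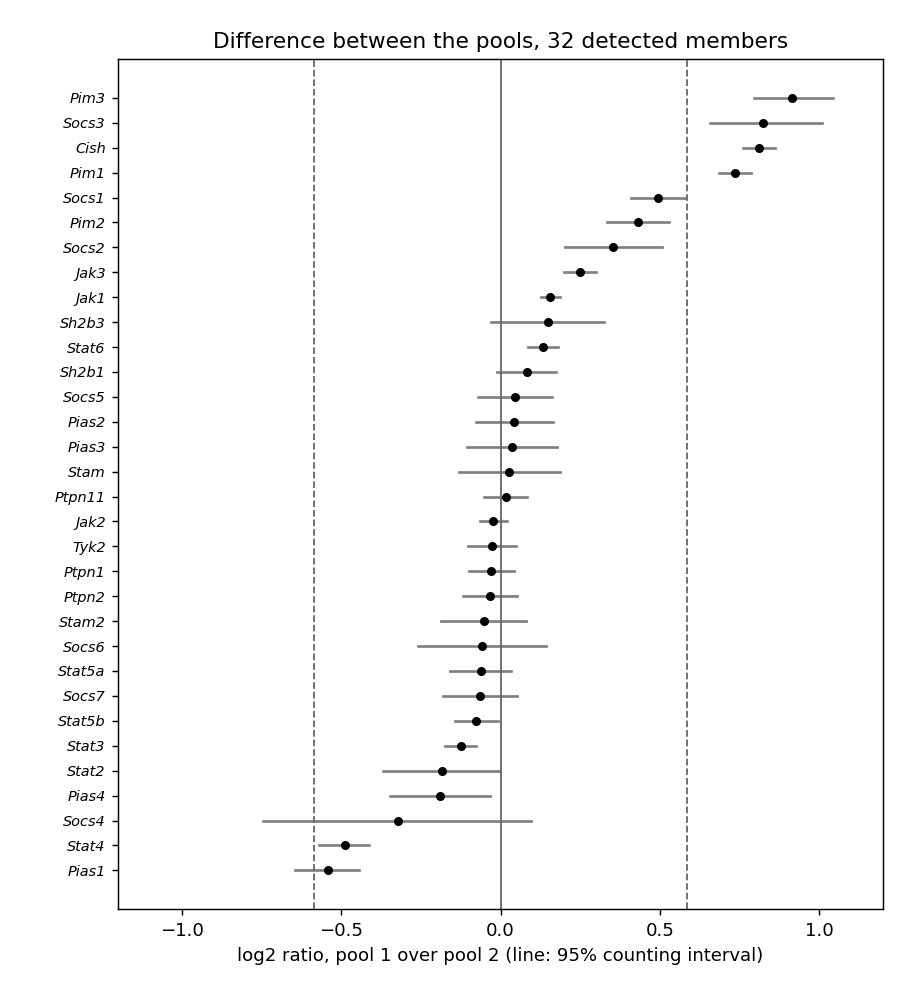
Log2 ratio of pool 1 over pool 2 for the 32 detected members (points) with 95% counting intervals (lines), sorted from highest to lowest, and dashed lines at 1.5-fold either way. Pim3, Socs3, Cish and Pim1 lie wholly past the upper line, and no point passes the lower one.

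High ratios lay mainly among the feedback inhibitors and Pim kinases. The 7 highest ratios were all of SOCS, CIS and Pim genes, with Socs1 at 1.41-fold, Pim2 at 1.35-fold and Socs2 at 1.28-fold after the 4 above. The next, Jak3, was at 1.19-fold. Over the 11 detected SOCS, CIS and Pim genes, 8 were higher in pool 1, with a median log2 ratio of 0.43. Over the 21 detected genes of the other families, 9 were higher in pool 1 and 12 in pool 2, with a median of -0.03 and 14 of them within 1.1-fold. Over all detected members 53.1% were that close, beside the 41.9% of detected genes. Of the 6 STATs, only Stat6 was higher in pool 1. This grouping was made after the values were seen and has no test.

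**Figure D4:**
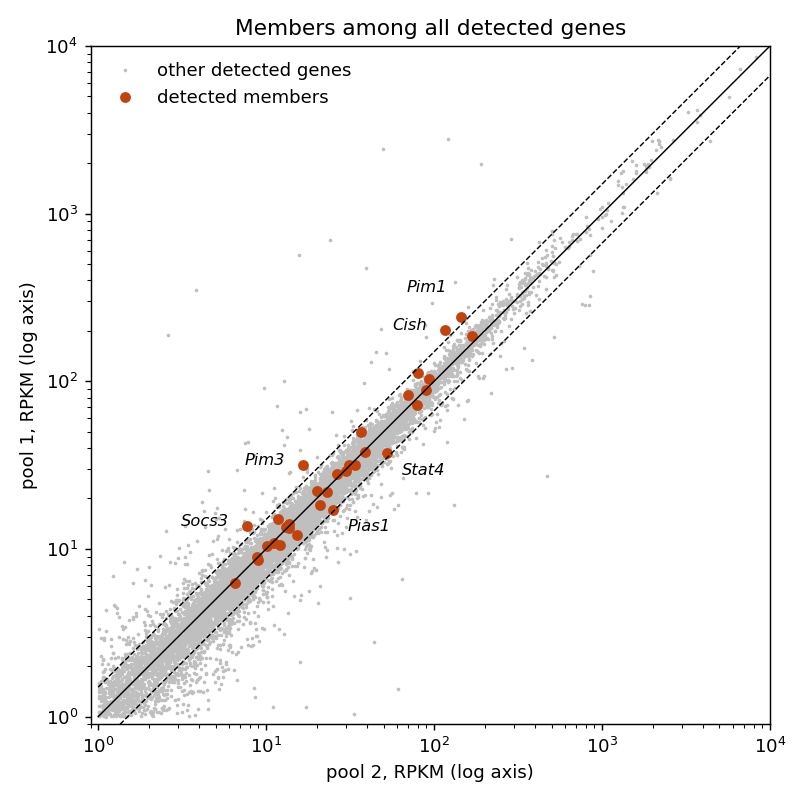
RPKM in pool 1 (y) and pool 2 (x), both on log axes, for the 11013 detected genes (grey) and the 32 detected members (orange), with lines at equality and at 1.5-fold either way. Pim1, Cish, Pim3 and Socs3 lie above the upper dashed line, and Stat4 and Pias1 lie close to the lower one.

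The same members are compact genes. Pim3, Socs3, Pim1 and Cish span 3541 to 6759 bases in GENCODE M21, whose ends differ from the RefSeq coordinates above, beside a median of 28669 bases for the detected members and 23243 for 9615 detected genes with a structure. Genes under 10000 bases were 25.0% of the detected members and 24.2% of detected genes. The 8 such members had a median log2 ratio of 0.62, against -0.03 for the 24 longer ones. They include the 4 genes picked for their high ratios, and the other 4 had a median of 0.26. Over all detected genes the same split gave -0.03 and -0.05, so the split was small among genes in general.

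The 3′ UTRs were searched on the sense strand for TATTTAT, the core of AU-rich elements, which are bound by mRNA-destabilising proteins such as that of Zfp36. Pim1 had 4 matches, Cish 3, and Pim3 and Socs3 had 2 each, in the longest coding transcript of each gene. Of the other 28 detected members only Stam, with 4, and Pias1, with 2, had as many, and Socs1 had 0. Pim2 is counted among those with fewer, but its annotated 3′ UTR holds only 3 bases, too short for any match. For Pim2 the search therefore says nothing. Those with 2 or more matches were 6 of 32 members (18.8%) and 10.4% of detected genes. The 6 had a median log2 ratio of 0.77, against -0.02 for the 26 others, but without the 4 genes picked for their ratios the remaining pair, Stam and Pias1, had a median of -0.26. Over all detected genes both classes had a median of -0.05. Both limits, 10000 bases and 2 matches, were chosen after the values were seen, and a match does not show that the element acts.

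**Figure D5:**
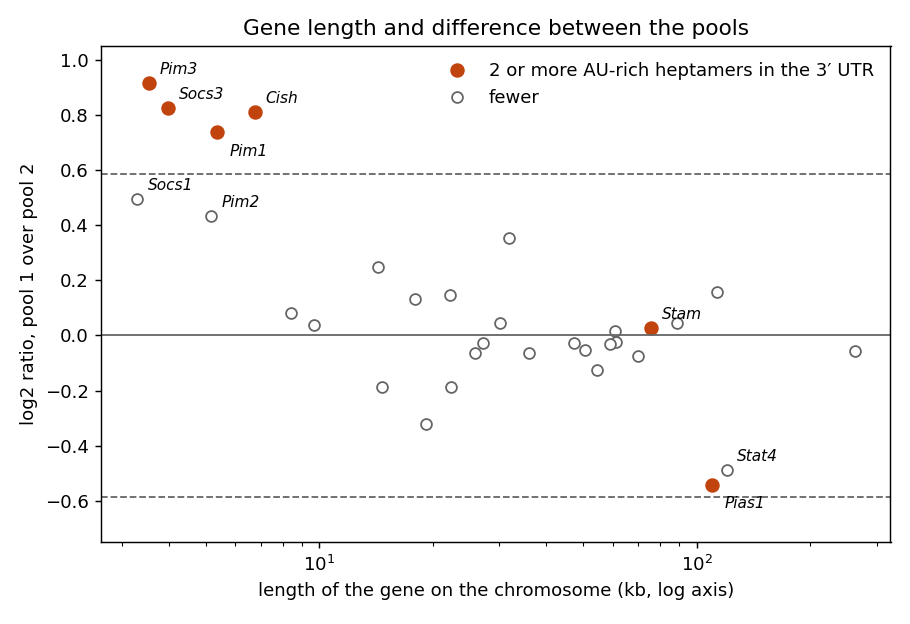
Log2 ratio of pool 1 over pool 2 against gene length on the chromosome (kb, log axis) for the 32 detected members, filled where the 3′ UTR holds 2 or more AU-rich heptamers, with dashed lines at 1.5-fold. The 4 genes above the upper line are filled and shorter than 10 kb, while the filled points of Stam and Pias1 lie at or below 0.03. Pim2 is unfilled, but its annotated 3′ UTR of 3 bases is too short for a match.

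Several groups of other genes moved with the pools. Of 18 immediate early genes, which stimulated cells transcribe within minutes, 16 were detected and all 16 were at least 1.5-fold higher in pool 1, against 2.6% of detected genes. Their summed level was 10783 RPKM in pool 1, against 1040.15 in pool 2. Egr1 was at 348 and 3.81 RPKM, Fos at 2441 and 49.6, and Fosb at 569 and 15.8, far larger differences than in any member. Zfp36, on the same list, was at 2786 and 120 RPKM. Their part in the differences of Pim3, Socs3, Cish and Pim1 was not tested.

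Markers of other marrow cells differed too. The 5 bone stroma genes summed to 68.2 RPKM in pool 1, against 2.80 in pool 2, with Col1a1 at 40.5 and 0.889, and 0 of 5 reached detection in both pools. The other lists were higher in pool 2 in sum. Neutrophil genes, 7 of 7 detected, summed to 956 RPKM in pool 1, against 2307 in pool 2, erythroid genes (5 of 5) to 603 against 1725, and eosinophil genes (4 of 6) to 34.6 against 529. T cell genes (5 of 6, with Cd8a listed at 0 in both pools) summed to 243 against 407, and B cell genes (2 of 5) to 34.9 against 56.4. Sums for NK and ILC1 genes (3 of 5) were 11.0 and 16.2 RPKM, and for mast cell and basophil genes (5 of 5) 121 and 123. That near-equal sum hides genes that differed both ways, with Mcpt8 and Fcer1a 1.61-fold and 2.17-fold higher in pool 1, Kit 1.99-fold higher in pool 2 and a median log2 ratio of 0.36. The 8 ILC2 markers summed to 1873 and 2018 RPKM, with a median log2 ratio of -0.03. Of these, only Il1rl1 was at least 1.5-fold apart, with 173 RPKM in pool 1 against 262 in pool 2 (1.51-fold). Genes within a list stood at unlike levels. Ebf1 (B cells), Eomes (NK cells) and Il5ra (eosinophils) were under 1 RPKM in both pools, whereas Cd79b (B cells) was at 33.5 and 47.8 RPKM, Prf1 (NK cells) at 6.79 and 7.39, and Prg2 (eosinophils) at 27.2 and 471. For Pax5 (B cells) the levels were 0.123 and 5.09 RPKM. The part of such cells in the member levels was not tested.

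Upstream of the JAKs, 23 of 36 listed receptor genes were detected. In the gamma chain and TSLP receptor list 9 of 10 were, led by the gamma chain Il2rg at 739 and 662 RPKM. Il2rg was 8.95 and 9.53 times the level of Jak3, the kinase it binds. Il7r, which Jak3 does not bind, was 4.31 and 6.71 times the level of Jak3 and 1.91 and 2.79 times that of Jak1. Levels differed between receptor classes. All 6 interferon and IL-10 receptor genes were detected, led by Ifngr1, with 142 RPKM in pool 1 against 248 in pool 2. In the gp130 list 4 of 6 were, led by the IL-27 receptor Il27ra at 149 and 150 RPKM. In the beta common list 2 of 5 were, and Csf2rb, its signalling chain, was at 0.779 and 1.38 RPKM. In the IL-12 and IL-23 list 2 of 3 were, with Il12rb1 at 63.9 and 72.4 RPKM and Il23r at 3.52 and 11.1. None of 6 hormone-type receptors was detected in both pools, and Ghr was listed at 0. None of the 36 was 1.5-fold higher in pool 1, and 2 were in pool 2, Ifngr1 and Il23r.

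The partners of SOCS proteins were all detected. SOCS boxes recruit elongins and Cul5 into ubiquitin ligases, and Tceb2 and Tceb1, the elongin genes, were at 93.2 ± 2.37 and 51.9 ± 4.22 RPKM, against 6.78 ± 0.941 for Cul5. The JAK phosphatase genes Ptprc (CD45) and Ptpn6 (SHP1) were at 140 ± 10.9 and 32.4 ± 2.39 RPKM, so Ptpn6 was about as high as Ptpn11, at 0.975 and 1.09 times its level. Of the endosomal sorting genes that act with STAM, Vps28 led at 290 ± 28.7 RPKM and Hgs, the direct partner, was at 22.6 ± 1.89. All 8 listed signalling adaptors and ligases were detected, led by Grb2 at 84.5 ± 2.51 RPKM, and so were the 4 STAT coactivators, led by Nmi at 57.6 ± 3.95. In these 5 lists, counting the phosphatases, no gene was 1.5-fold apart in either direction.

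The last list held 12 genes outside the set that STATs are known to regulate in lymphocytes, and all were detected. The survival genes Mcl1 and Bcl2 were at 101 ± 1.90 and 19.9 ± 0.332 RPKM, and the cell cycle gene Ccnd2 was at 112 ± 13.2. Il2ra, the highest, was at 156 and 146 RPKM. Only Osm, a cytokine gene that STAT5 induces, was 1.5-fold higher in pool 1, at 68.2 against 43.9 RPKM. Prdm1, a repressor of lymphocyte genes, was 1.52-fold higher in pool 2, with 2.97 RPKM in pool 1 against 4.56 in pool 2. The median log2 ratio of the 12 was -0.11, so as a list they were not higher in pool 1.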

How the data were processed

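Values were RPKM per gene, which the authors deposited for 1 library per file. Per the submitters' processing notes, the build was mm10 and the tools included CASAVA 1.8.2, edgeR (3.8.2 and 3.22.0) and featureCounts, with no role for each. Aligner, strand setting and read length were not given in the sources used here. Files were assigned to samples as deposited, and pools numbered in accession order.

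Rows were joined by gene ID. The largest whole library total that explained the steps between low values was sought, and for 17233 of 17233 genes above 0 a whole length between 20 and 130000 bases then gave whole reads in both pools within the rounding of the values, against 2 of 1000 with totals wrong by 1 part in 1000. These reads are lower bounds, which if anything widens the counting intervals (95%, exact binomial). The intervals leave out the dependence between reads and the spread between mice, so they can still be too narrow for the difference between the pools. The step was tested on simulated data. Detection was 1 RPKM in both pools. Log2 levels and ratios used a pseudocount of 0.1 RPKM, which understates differences of low genes. Means carry the SD over both pools. No test was made, because there is 1 group and 1 library a side. Members were named by a fixed rule: all of them, with both values for the highest and lowest of each family and those 1.5-fold apart. The members and gene lists were chosen with earlier results of these data known. Of the listed names, Elob, Eloc and Siglecf are in the files under the older symbols Tceb2, Tceb1 and Siglec5. A listed marker gene is not reported here. Exon overlap, gene length, 3′ UTRs and shared 50-base stretches came from GENCODE M21 (GRCm38), taking the basic set's longest coding transcript. Python 3.11.15, numpy 2.4.6, pandas 2.3.3 and scipy 1.17.1 were used.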

Additional observations from a re-analysis of the deposited data

How the results depend on the processing

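The count of 32 detected members was the same at 0.5 and 5 RPKM and in either pool alone. The median level of all 33 members was 4.49 (log2), ranged from 4.48 to 4.52 with 1 pool left out, and was 4.55 with a pseudocount of 1, a move larger than the spread between the pools. The count of 4 members 1.5-fold apart was the same with pseudocounts of 0.01 and 1, at 5 RPKM, under both other scalings and where the whole counting interval had to pass 1.5-fold, an alternative added after the data were seen. It was 5 with no filter, where Sh2b2 joins, higher in pool 2, and 0 at 2-fold. The median log2 ratio was 0.02, and lay between 0.02 and 0.07 under the alternatives. Rescaling moved pool 2 by -0.04 (median of detected genes) or -0.05 (upper quartile) on the log2 scale. Leaving out 1 pool moved each of 82 levels of members and families by less than 1 SD, which holds by construction with 2 pools, and leaves no value for a difference between pools. No paired analysis was possible because there is only 1 group. Depth limits Sh2b2, and Socs4 through its low bound of reads.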
